A study of Mus musculus with 6 samples.

Results

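Expression of the proteasome's interferon-induced catalytic subunits, their constitutive counterparts and the activator subunits was examined in 4T1.2 mammary carcinoma cells that carried introduced Irf7. The 9 genes were selected by symbol in the annotation of the array, with control spots left out: the induced subunits Psmb8, Psmb9 and Psmb10, the constitutive subunits Psmb5, Psmb6 and Psmb7, and the activators Psme1, Psme2 and Psme3. Of the 9 genes, 8 had a probe under their symbol, all 8 were well above background on all 6 arrays, and they stood among 15414 genes tested. No spot carried the symbol Psme2, and 2 probes that list Psme2 accessions under another name are described separately. In bulk RNA of this kind, fewer cells with a transcript and less transcript per cell cannot be told apart.

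The arrays compared 4T1.2 cells in which a pMSCV retroviral construct expressed Irf7 (3 arrays, called IRF7 here) with 4T1.2 cells given the empty base vector (3 arrays). 4T1.2 is a mouse mammary tumour line of BALB/c background, and Irf7 encodes a factor that switches on the genes of type I interferons. Both populations went through puromycin selection and single-cell cloning, and several clones were then pooled, so each group is 1 pooled population sampled in 3 independent experiments and its p-values measure the spread between cultures. Cy3-labelled cRNA of total RNA was hybridised to single-colour Agilent arrays of 43379 mouse spots, of which 54.3 to 59.7% were well above background.

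The proteasome is a barrel of stacked rings that cuts ubiquitin-tagged proteins into peptides. In cells exposed to interferon, Psmb9 takes the place of Psmb6, Psmb10 that of Psmb7 and Psmb8 that of Psmb5 in newly built barrels, which are then called immunoproteasomes and cut more peptides of the kind that MHC class I molecules bind. Psme1 and Psme2 together form an interferon-inducible cap that opens the barrel, and Psme3 forms a related cap found mainly in the nucleus.

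The probe sequences decide which transcripts each value stands for, and so they are given first. Coordinates are those of the files (mouse build mm7), and each probe is written 5′ to 3′ in lower case with no part marked. Psmb8 had 2 probes, the brighter at chr17:32280725-32281049 and the other at chr17:32280668-32280727, both on the plus strand. The brighter Psmb8 probe spans 325 bases of genome and the Psmb7 probe at chr2:38620757-38641176 (minus strand) spans 20420 bases, so the 60 bases of each do not lie in 1 unbroken stretch of the genome. The Psmb9 probe lies at chr17:32262147-32262206 (minus strand), the Psmb10 probe at chr8:104534632-104534691 (minus strand), the Psmb5 probe at chr14:49480764-49480823 (minus strand) and the Psmb6 probe at chr11:70609086-70609145 (plus strand), each over 60 bases without a gap.
Psmb8, brighter probe: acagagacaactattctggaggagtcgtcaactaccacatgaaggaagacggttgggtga
Psmb8, other probe: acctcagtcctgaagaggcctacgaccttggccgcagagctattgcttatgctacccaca
Psmb9: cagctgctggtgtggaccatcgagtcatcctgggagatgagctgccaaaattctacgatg
Psmb10: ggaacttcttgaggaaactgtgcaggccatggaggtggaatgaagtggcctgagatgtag
Psmb5: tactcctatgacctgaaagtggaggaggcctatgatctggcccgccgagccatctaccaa
Psmb6: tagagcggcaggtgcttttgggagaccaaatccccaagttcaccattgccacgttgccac
Psmb7: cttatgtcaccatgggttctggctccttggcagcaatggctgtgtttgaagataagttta

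The 2 probes that list Psme2 accessions are named in the files for Psme2b-ps, a copy of Psme2 that was once held to be a pseudogene. Both list accessions of Psme2 as well and are placed on chromosome 14 (minus strand), at chr14:50454846-50454905 for the brighter and chr14:50455438-50455635 for the other, close to the Psme1 probe at chr14:50448660-50448719. The RefSeq gene table (assembly GRCm38.p6) has Psme2 on chromosome 14 and Psme2b on chromosome 11. Signal of the gene and of its copy cannot be told apart with these probes, which are shown for that reason.
Psme2b-ps, brighter probe: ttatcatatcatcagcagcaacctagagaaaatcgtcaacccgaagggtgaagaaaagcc
Psme2b-ps, other probe: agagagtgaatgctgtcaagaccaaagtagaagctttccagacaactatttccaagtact

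The introduced gene was examined as the check of the labels. Its signal was 4486 to 5012 in the IRF7 arrays and 195 to 246 in the base-vector arrays. Irf7 was thus 19.4-fold higher (log2 change 4.28, SE 0.049, limma adjusted p = 3.17e-07), with a log2 change of 4.19 within slide 1. Over all genes, 9399 of 15414 passed an adjusted p of 0.05 in limma with Benjamini-Hochberg adjustment (61%), with 4916 called higher (31.9%) and 4483 called lower (29.1%), so a called gene is common in this comparison. The median gene moved by 0.03 on the log2 scale. Where the arrays were not scaled to each other it moved by 0.23, and 6439 called genes were higher and 1703 lower. The 3 IRF7 arrays lay on slide 1 (scan 1) beside base-vector array 1, and slide 2 held base-vector arrays 2 and 3 alone, so the value within slide 1, which rests on 1 base-vector array, is given beside each member and list.

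All 3 induced subunits were called higher in the IRF7 cells, beside 31.9% of all genes called higher. Their folds ran from 1.11 for Psmb9 to 1.51 for Psmb8, below the 2-fold size that 905 called genes (5.87% of those tested) reached. In none of the 3 did the arrays of the 2 groups overlap, as in 67.8% of all genes tested.

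Psmb8 is the induced counterpart of Psmb5 and carries the chymotrypsin-like activity of the immunoproteasome. Its brighter probe had processed signals of 21664, 22010.4 and 24734 in the IRF7 arrays and of 14088, 12086 and 13224 in the base-vector arrays. Every IRF7 array thus lay above every base-vector array, before scaling as well. Scaled levels, meaning log2 signal less the 75th percentile of the same array, were 4.04 ± 0.05 in the IRF7 cells and 3.45 ± 0.05 in the base-vector cells (SD, n = 3 each). This was 1.51-fold higher (log2 change 0.60, SE 0.044, 95% interval 0.49 to 0.71, limma adjusted p = 0.000114), a change above that of 91.8% of the genes tested. The other Psmb8 probe had a log2 change of 0.66 (SE 0.042), and within slide 1 the brighter probe had 0.60.

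Psmb10, the induced counterpart of Psmb7 with trypsin-like activity, came next. Its processed signals were 39429, 38280.4 and 41973 in the IRF7 arrays and 28035, 23234 and 25728 in the base-vector arrays, again without overlap. Scaled levels were 4.85 ± 0.08 in the IRF7 cells and 4.41 ± 0.06 in the base-vector cells (SD, n = 3 each). Psmb10 was 1.36-fold higher (log2 change 0.44, SE 0.054, 95% interval 0.31 to 0.57, limma adjusted p = 0.000895), and its log2 change was 0.41 within slide 1.

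Psmb9, the induced counterpart of Psmb6, rose least. It had processed signals of 2602, 2681 and 2946 in the IRF7 arrays and of 2284, 2043 and 2109 in the base-vector arrays. The groups did not overlap, but their nearest arrays were only 0.096 apart on the scaled log2 scale. Levels were 0.99 ± 0.04 in the IRF7 cells and 0.83 ± 0.01 in the base-vector cells (SD, n = 3 each), a rise of 1.11-fold (log2 change 0.16, SE 0.031, 95% interval 0.08 to 0.23, limma adjusted p = 0.00681). That change exceeded those of 64.6% of the genes tested. The call ended with slide as a block (log2 change 0.17, adjusted p = 0.0501), within slide 1 (0.17, adjusted p = 0.0644) and with median centring (0.11, adjusted p = 0.387).

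**Figure D1:**
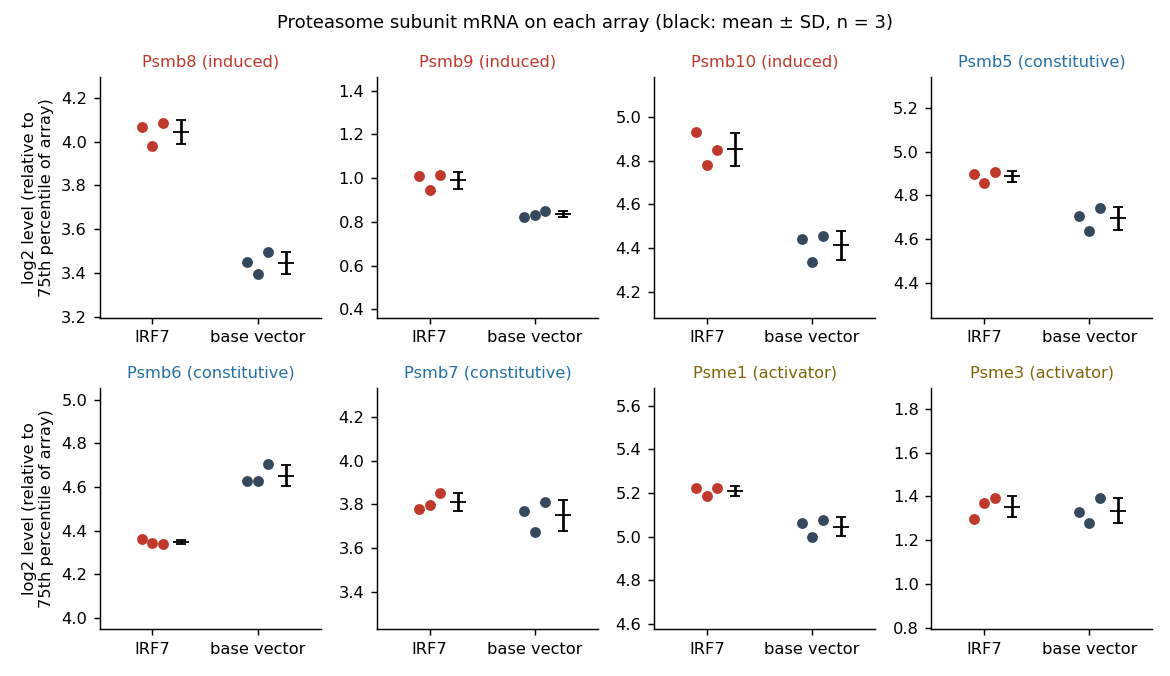
Level of each subunit on each array, as log2 of the processed signal relative to the 75th percentile of the array (vertical axis, each panel covering the same span), for IRF7 cells (red, left) and base-vector cells (dark, right). Points are arrays and black marks the mean ± SD (n = 3); the IRF7 points lie above the base-vector points for Psmb8, Psmb9, Psmb10, Psmb5 and Psme1, below them for Psmb6, and among them for Psmb7 and Psme3.

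The constitutive counterparts moved in different directions. Of the 3, Psmb5 was called higher, Psmb6 was called lower and Psmb7 was not called, beside 61% of all genes called in either direction.

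Psmb5, the constitutive subunit with chymotrypsin-like activity, had processed signals of 38473, 40303 and 43747 in the IRF7 arrays and of 33628, 28592 and 31360.3 in the base-vector arrays. Levels were 4.89 ± 0.03 in the IRF7 cells and 4.69 ± 0.05 in the base-vector cells (SD, n = 3 each). The groups did not overlap, as in 67.8% of all genes tested. Psmb5 was 1.14-fold higher (log2 change 0.19, SE 0.038, limma adjusted p = 0.00627). With slide as a block (0.18, adjusted p = 0.0620) and with median centring (0.15, adjusted p = 0.270) the call ended, while within slide 1 it held (0.18, adjusted p = 0.0398).

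Psmb6, the constitutive subunit that cuts after acidic residues, was the only member called lower. Its processed signals were 26556, 28309.6 and 29532 in the IRF7 arrays and 31878, 28335 and 30548 in the base-vector arrays. These unscaled signals overlapped, and the groups separated only once each array was set against its 75th percentile. Levels were then 4.35 ± 0.01 in the IRF7 cells and 4.65 ± 0.05 in the base-vector cells (SD, n = 3 each). Psmb6 fell to 0.810 of the base-vector level (log2 change -0.30, SE 0.033, 95% interval -0.39 to -0.22, limma adjusted p = 0.000577) and read -0.28 within slide 1. Without scaling its log2 change was -0.10 (adjusted p = 0.357), where the median gene moved by 0.23.

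Psmb7, the constitutive subunit with trypsin-like activity, had processed signals of 17724, 19387 and 21086 in the IRF7 arrays and of 17597, 14631 and 16412 in the base-vector arrays. Before scaling every IRF7 array lay above every base-vector array, and on the scaled levels the groups overlapped. The log2 change of 0.06 (SE 0.046, limma adjusted p = 0.302) had a 95% interval from -0.05 to 0.17 and read 0.04 within slide 1. A probe for MGC107702, described in the files as similar to Psmb7 and placed on the X chromosome, had 240.3 to 287 in the IRF7 arrays and 203 to 249 in the base-vector arrays, with a log2 change of 0.03 (adjusted p = 0.714).

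**Figure D2:**
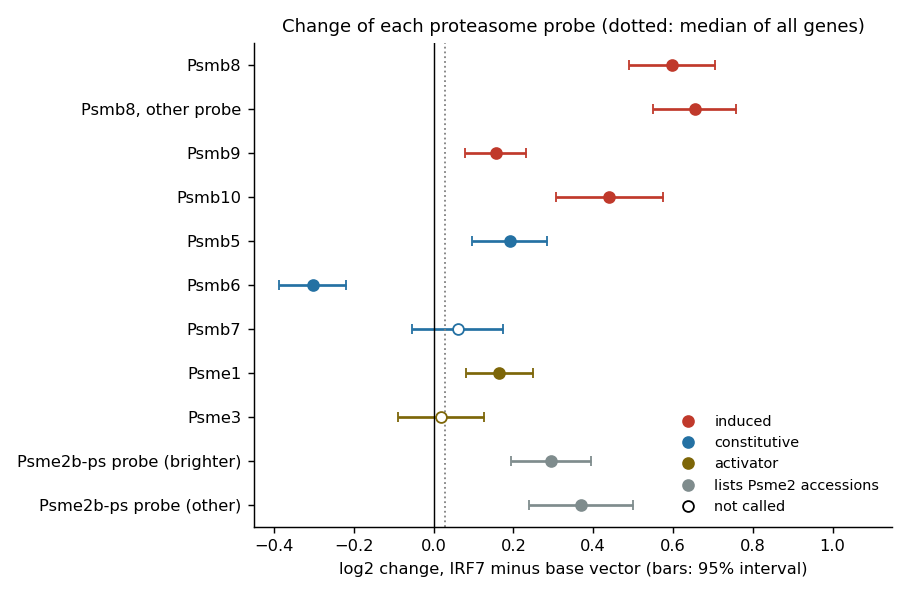
Log2 change of each probe, IRF7 minus base vector, from limma over 6 arrays (horizontal axis; bars are 95% intervals; open points were not called at an adjusted p of 0.05; the dotted line is the median of all genes). Psmb8 (0.60 and 0.66) and Psmb10 (0.44) lie farthest to the right, Psmb9 (0.16) beside Psmb5 (0.19), and Psmb6 (-0.30) is the only probe left of 0 whose interval leaves it out.

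Each induced subunit was next set against its own counterpart on the same array. This cancels scaling by a constant factor per array, though not scaling that depends on the strength of the signal. Only the shift of such a ratio between groups was read, since the levels of different probes cannot be compared. The Psmb8 to Psmb5 ratio stood 0.42, 0.38 and 0.43 above the base-vector mean in the IRF7 arrays, on the log2 scale, while the base-vector arrays themselves stood at -0.0074, 0.0054 and 0.0020. The ratio of Psmb9 to Psmb6 stood 0.47, 0.42 and 0.49 above in the IRF7 arrays, and base-vector arrays ranged from -0.04 to 0.02. For Psmb10 to Psmb7 the IRF7 arrays stood at 0.49, 0.32 and 0.33 and the base-vector arrays at -0.01 to 0.0093.

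In all 3 pairs every IRF7 array lay above every base-vector array. Of single genes 67.8% had no overlap between the groups, and the share among ratios of other gene pairs was not examined. The mean shift was 0.41 (SE 0.016) for Psmb8 over Psmb5, 0.46 (SE 0.029) for Psmb9 over Psmb6 and 0.38 (SE 0.056) for Psmb10 over Psmb7, or 1.33-fold, 1.37-fold and 1.30-fold. A two-sided exact permutation test over the 6 arrays gave p = 0.1 for each pair, the smallest that 3 arrays against 3 allow, and 0.1 after adjustment over the 3 pairs, so this design cannot reach 0.05. Within slide 1 the shifts were 0.41, 0.44 and 0.37, and with quantile normalization 0.41, 0.49 and 0.36. The members behind these shifts differed: Psmb8 and Psmb10 rose with a smaller or uncalled change in Psmb5 and Psmb7, whereas the Psmb9 to Psmb6 shift combined a rise of 0.16 with a fall of 0.30. The call of that rise ended in 3 settings, and the fall lay near the median change of genes around Psmb6 (-0.34), described below.

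**Figure D3:**
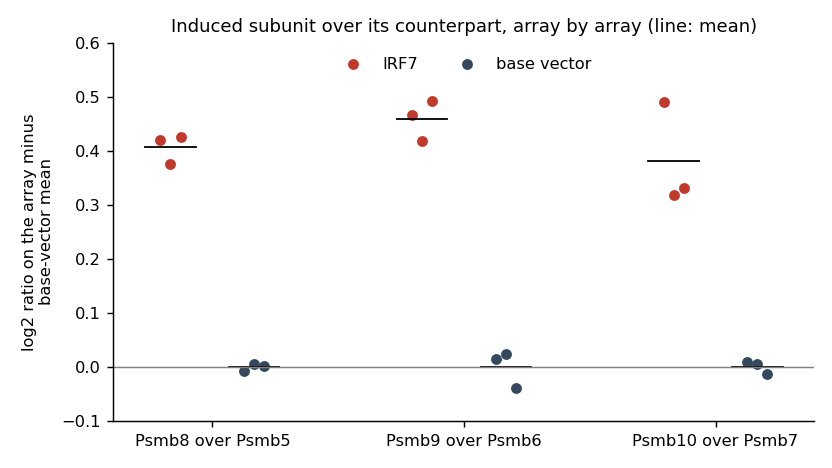
Log2 ratio of each induced subunit to its constitutive counterpart on each array, minus the base-vector mean of that pair (vertical axis), for IRF7 arrays (red, left of each pair) and base-vector arrays (dark, right); lines are means of 3 arrays. The IRF7 arrays stand 0.32 to 0.49 above the base-vector mean in the 3 pairs.

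Of the activator subunits, Psme1 was called higher and Psme3 was not called. Psme1, the alpha chain of the interferon-inducible cap, had processed signals of 48293, 50650.0 and 54441 in the IRF7 arrays and of 43153, 36655 and 39551 in the base-vector arrays. Levels were 5.21 ± 0.02 in the IRF7 cells and 5.05 ± 0.04 in the base-vector cells (SD, n = 3 each), without overlap, as in 67.8% of all genes tested. The rise was 1.12-fold (log2 change 0.16, SE 0.034, limma adjusted p = 0.00735). It was not called with slide as a block (0.15, adjusted p = 0.0816), within slide 1 (0.15, adjusted p = 0.0599) or with median centring (0.12, adjusted p = 0.351).

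Psme3, the gamma subunit of the nuclear cap, had processed signals of 3179, 3597 and 3827 in the IRF7 arrays and of 3243, 2789 and 3075 in the base-vector arrays. The scaled groups overlapped, and the log2 change of 0.02 (SE 0.044, limma adjusted p = 0.730) had a 95% interval from -0.09 to 0.13. It read 0.02 within slide 1.

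The brighter probe listing Psme2 accessions, which stands for the beta chain of the interferon-inducible cap or its copy, had processed signals of 78340.4, 79088 and 85464 in the IRF7 arrays and of 61598, 53180.2 and 57962 in the base-vector arrays. It was 1.23-fold higher (log2 change 0.29, SE 0.041, limma adjusted p = 0.00147), and the other probe was 1.29-fold higher (0.37, SE 0.052, adjusted p = 0.00177). Neither probe overlapped between groups, beside 67.8% of all genes tested without overlap. Within slide 1 the brighter probe had 0.30, and with median centring it was not called (adjusted p = 0.0752). If these probes are counted as Psme2, 2 of 3 activators were called higher in place of 1 of 2, beside 31.9% of all genes called higher.

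The rest of the proteasome was read from the same fit. Of 43 tested genes for other subunits, assembly factors and bound enzymes, 26 were called higher, 5 lower and 12 were not called, against 31.9% and 29.1% of all genes. Their median log2 change was 0.30, against 0.03 for all genes, and was 0.24 within slide 1. Without scaling between arrays 31 were called higher and 0 lower, with a median of 0.50 where that of all genes was 0.23. With median centring 17 were called higher and 4 lower, with slide as a block 22 and 4, and with quantile normalization 26 and 9. Of all 15414 genes, median centring called 2768 higher and 3562 lower, slide as a block 3649 and 3478, and quantile normalization 4740 and 4953. Calls of the lists below under these settings are to be read beside the same all-gene counts.

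The alpha ring of the barrel, which gates entry to it, had 5 of 7 genes called higher and 0 lower, beside 31.9% and 29.1% of all genes. The median of the ring genes was 0.32 (also 0.32 within slide 1). Psma4 rose by 0.46 (SE 0.038, limma adjusted p = 0.000187) and Psma5 by 0.37 (SE 0.041). Psma3 rose by 0.32 and Psma2 by 0.33. The 4 beta subunits without catalytic activity were all called higher, with a median of 0.39 (also 0.39 within slide 1): Psmb2 rose by 0.52 (SE 0.065), Psmb3 by 0.48 (SE 0.039), Psmb4 by 0.31 and Psmb1 by 0.14. With slide as a block 4 alpha genes and 3 of these beta genes were called, Psmb1 no longer (adjusted p = 0.109), and with median centring 2 and 2, without Psma2, Psma3, Psmb4 and Psmb1. The Psmb9 change of 0.16 was thus below the medians of both groups of ring subunits, that of Psmb10 (0.44) near them and that of Psmb8 (0.60) above all 11 of these genes; these differences between genes were not tested. Psma8 and Psmb11, the subunits of testis and thymus barrels, were not well above background on enough arrays to be tested.

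In the regulatory particle that recognises ubiquitin and unfolds substrates, 3 of 6 ATPase genes were called higher and 1 lower, and 9 of 13 other subunits were called higher and 2 lower. The shares of all genes were 31.9% higher and 29.1% lower. Medians of the ATPases and of the others were 0.17 and 0.30 (0.19 and 0.24 within slide 1). With slide as a block the calls were 3 higher and 0 lower for the ATPases and 7 and 2 for the others, and with median centring 3 and 0, and 6 and 2. Psmd7 had the largest rise of these 19 genes, at 0.76 (SE 0.040, limma adjusted p = 3.39e-05), with 0.57 and 0.88 from its other probes. Psmd1 rose by 0.61, Psmd3 by 0.54, Psmc5 by 0.48, Psmc2 by 0.43 and Psmc1 by 0.39. A second Psmc2 probe did not pass (0.31, adjusted p = 0.0898), and a second Psmc5 probe read 0.31. Psmc6 was not called by its brighter probe (-0.07, adjusted p = 0.172), while its other probe rose (0.38, adjusted p = 0.000531). Adrm1 was called higher (0.30), while its other probe did not pass (0.05, adjusted p = 0.239). Psmd8 fell by 0.38, as did Psmd13, and Psmc4 fell by 0.14, a call that ended with slide as a block (adjusted p = 0.131) and with median centring (adjusted p = 0.188). These 3 lie on chromosome 7, where 758 of 1136 tested genes were called lower and the median log2 change was -0.38; the fourth proteasome gene tested there, Psma1, was not called (-0.03).

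Among assembly factors 2 of 7 were called higher and 0 lower (median 0.08, and 0.10 within slide 1). Over all genes 31.9% were called higher and 29.1% lower. Pomp, the chaperone that matures the barrel, rose by 0.30 (SE 0.035) and Psmg3 by 0.38, while Psmd5 (0.11, adjusted p = 0.0781) did not pass. The brighter Psmd9 probe did not pass (0.07, adjusted p = 0.0817) and the other did (0.24, adjusted p = 0.00388). The Pomp call ended with median centring (adjusted p = 0.0539). Of 6 further regulators and bound enzymes, 3 were called higher and 2 lower (median 0.23, and 0.20 within slide 1). The ubiquitin ligase Ube3c rose by 0.68 and the deubiquitinase Uchl5 by 0.43. Psme4, a cap of a different type, fell by 0.31 (SE 0.028), with -0.32 and -0.26 from other probes. The inhibitor Psmf1 fell by 0.23, and its other probes, at -0.29 (adjusted p = 0.0992) and -0.08 (adjusted p = 0.175), did not pass.

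**Figure D4:**
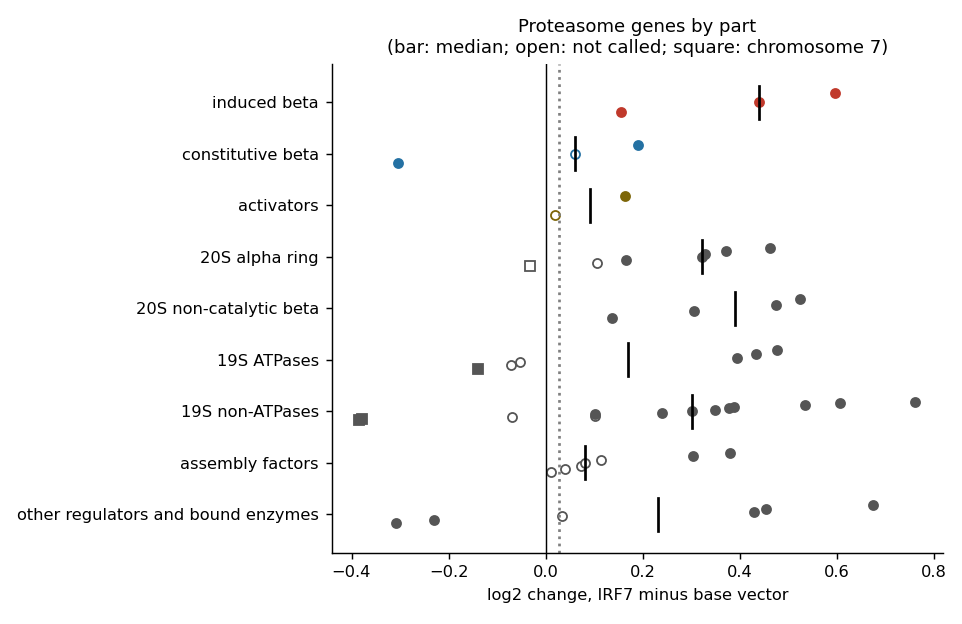
Log2 change, IRF7 minus base vector (horizontal axis), of every tested proteasome gene, with a row for each part of the complex; black bars are medians, open symbols were not called and squares are genes on chromosome 7. The induced subunits span 0.16 to 0.60, overlapping the alpha ring (-0.03 to 0.46) and the beta subunits without catalytic activity (0.14 to 0.52).

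Genes that act with the immunoproteasome in MHC class I presentation were divided: of 11 tested, 6 were called higher and 4 lower, with a median log2 change of 0.20 (0.15 within slide 1), beside 31.9% and 29.1% of all genes. With slide as a block 5 were called higher and 3 lower, and with median centring 4 and 3. Tapbp, which bridges the peptide transporter and class I molecules, rose by 1.01, and by 0.67 with its other probe. The transporter chain Tap1 rose by 0.76, and the heavy chains H2-K1 and H2-D1 by 0.50 and 0.35. The partner chain Tap2 fell by 0.35 (SE 0.041, limma adjusted p = 0.000743). Of 10 tested regulators of transcription known to act on these genes or on interferon signalling, 6 were called higher and 1 lower. Over all genes these shares were 31.9% and 29.1%. The median of the regulators was 0.35 (0.43 within slide 1), against 0.03 for all genes. Both slide as a block and median centring gave 5 called higher and 1 lower. Irf9 and Stat2, which carry the interferon signal to the nucleus, rose by 2.45 and 1.83, and Irf8 rose by 0.53. Irf1, a factor that activates Psmb9, fell by 0.40 (SE 0.034) and read -0.70 with a second probe. Nfe2l1, which drives constitutive proteasome genes when the proteasome is blocked, did not pass (0.0033, adjusted p = 0.942). Nor did Nfe2l2 (0.11) and Ngly1 (-0.06), though another Nfe2l2 probe fell (-0.41, adjusted p = 0.0152). Ddi2 was called higher (0.36, limma adjusted p = 0.00481), while its other probe did not pass (-0.08, adjusted p = 0.670). Irf2 rose by 0.33, a call that ended with slide as a block (adjusted p = 0.0573) and with median centring (adjusted p = 0.0867).

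The genome around each member was examined, because tested genes of some chromosomes moved together. Within 500 kb of the Psmb6 probe, 24 of 32 other tested genes were called lower and 2 higher, beside 29.1% and 31.9% of all genes. The median log2 change of these neighbours was -0.34, so the Psmb6 change of -0.30 differed from its neighbours' median by 0.03. Over chromosome 11 the median lay between -0.28 and -0.15 in each stretch of 10 Mb up to 90 Mb and between -0.06 and 0.11 beyond it. Psmb6 and Psme4 lie below 90 Mb and fell; Psmd11, between 80 and 90 Mb, rose by 0.24; and Psmd3, Psmb3, Psmc5 and Psmd12, beyond 90 Mb, rose, and Psme3, also there, was not called. The part of this regional shift in the Psmb6 value, and so in the Psmb9 to Psmb6 ratio, was not tested.

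The other members lay farther above their neighbours' medians, by 0.06 to 0.57. Psmb8 exceeded the median of its 43 neighbours by 0.57, and 4 of them moved further up. Psmb9, in the same stretch of the MHC region on chromosome 17, exceeded the median of 44 neighbours by 0.14, with 18 above it. Psmb10 exceeded the median of its 30 neighbours on chromosome 8 by 0.37, and 0 of them moved further up. Psmb7 exceeded the median of 8 neighbours by 0.23. The differences from the neighbours' median were 0.13 for Psmb5, 0.09 for Psme1 and 0.06 for Psme3, and the Psme1 neighbours include Irf9.

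**Figure D5:**
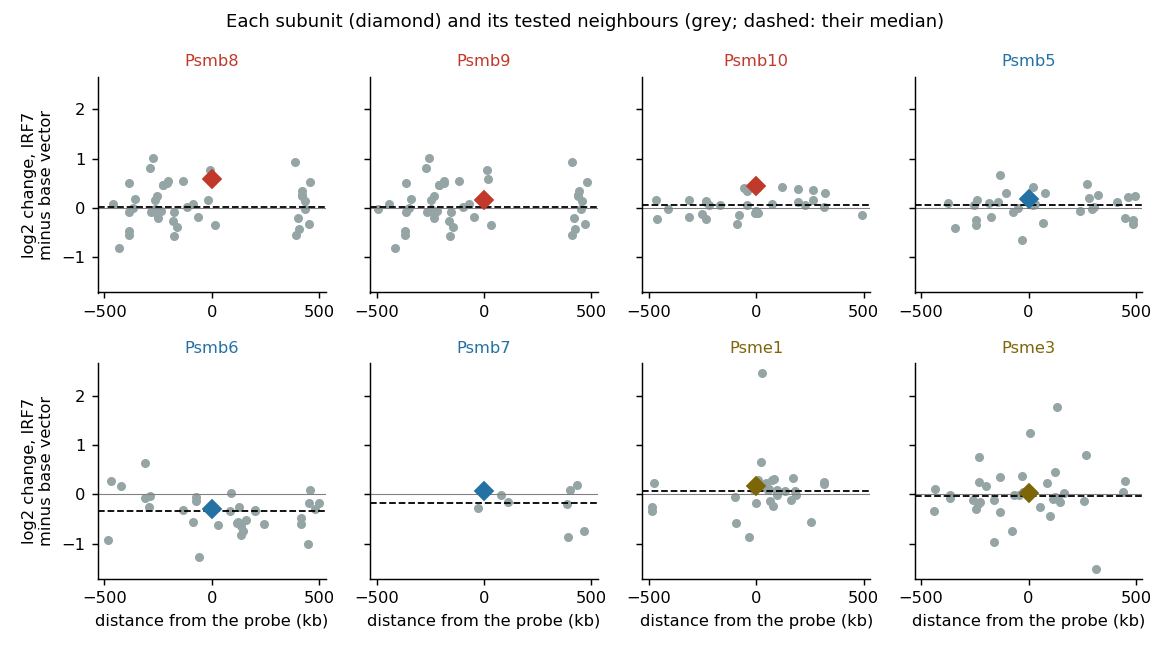
Log2 change, IRF7 minus base vector (vertical axis), of each subunit (diamond) and of the other tested genes within 500 kb of its probe (grey) by distance in kb (horizontal axis); the dashed line is the neighbours' median. The dashed line lies at -0.34 around Psmb6, on which that subunit falls, and at 0.02 around Psmb8 and 0.07 around Psmb10, which lie above it.

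Promoter windows of 300 bases (250 before to 50 after the gene's start, RefSeq, GRCm38.p6) matched 8 of the 9 genes, in 9 windows. They were searched on both strands for the core of the interferon-stimulated response element (GAAANNGAA), a STAT element (TTCNNNGAA, the same on both strands), the antioxidant element core (TGACNNNGC) and the GC box (GGGCGG), held by 8.56%, 8.30%, 12.4% and 35.7% of all 32851 windows. The first was found in Psme1 only and the second in Psmb8 only, while Psmb5 and Psmb6 each held the third. GC boxes were in windows of 4 of the genes. The Psmb8 window (chr17:34197945-34198244, plus strand) has the STAT element beginning 97 bases before the start, and the Psme1 window (chr14:55578244-55578543, plus strand) has the response element core, on the minus strand, beginning 10 bases after it; these matches are in capitals. The Psmb9 window (chr17:34187281-34187580, minus strand) holds neither interferon motif and is shown because 275 of its bases are also in the window of Tap1, which is transcribed away from it and rose by 0.76 where Psmb9 rose by 0.16.
Psmb8 promoter: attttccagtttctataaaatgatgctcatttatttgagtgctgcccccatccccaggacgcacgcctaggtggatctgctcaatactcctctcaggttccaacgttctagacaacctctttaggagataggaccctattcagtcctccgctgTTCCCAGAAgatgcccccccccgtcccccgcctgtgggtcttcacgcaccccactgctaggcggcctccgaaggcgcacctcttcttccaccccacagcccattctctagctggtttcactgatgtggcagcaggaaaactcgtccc
Psme1 promoter: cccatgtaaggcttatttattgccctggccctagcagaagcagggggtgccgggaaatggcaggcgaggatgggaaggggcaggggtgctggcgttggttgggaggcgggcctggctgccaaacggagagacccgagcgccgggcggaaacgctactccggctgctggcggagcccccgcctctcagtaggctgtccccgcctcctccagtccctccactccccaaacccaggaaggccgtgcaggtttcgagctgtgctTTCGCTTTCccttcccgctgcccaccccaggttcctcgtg
Psmb9 promoter: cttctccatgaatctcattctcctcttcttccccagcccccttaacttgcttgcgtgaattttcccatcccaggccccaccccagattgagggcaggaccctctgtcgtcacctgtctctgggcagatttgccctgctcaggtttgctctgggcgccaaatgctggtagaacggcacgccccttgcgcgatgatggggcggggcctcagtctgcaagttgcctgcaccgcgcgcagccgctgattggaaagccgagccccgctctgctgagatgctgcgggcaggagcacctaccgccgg

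The genes most like each induced subunit were found by the root mean square difference over the 6 arrays, with levels centred on the base-vector mean. Clone, locus and predicted gene names were left out. Trappc2 (0.013), Sri (0.015) and Mrpl20 (0.016) were nearest to Psmb8. For Psmb9 they were Rnf111 (0.013), Abhd11 (0.013) and Rfwd3 (0.015), and for Psmb10 Mcm3 (0.017), Nol11 (0.018) and Eny2 (0.022). None of these 9 genes belongs to the proteasome or antigen presentation lists, and their log2 changes ranged from 0.15 to 0.61.

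Markers were read for the cell types a culture could hold. Of 8 epithelial markers, 6 were well above background on all IRF7 arrays and 7 on all base-vector arrays; Krt19 was on none. Cldn7 was on none of the IRF7 arrays and fell (log2 change -2.91, limma adjusted p = 6.03e-06), whereas Krt7 (log2 change 2.63), Krt8 (0.15) and Epcam (adjusted p = 0.00170) rose. Krt18 (-0.06), Krt14 (-0.21) and Cdh1 (0.04) were not called. The summed epithelial signal, unscaled as are the sums below, was 508594 to 563568 in the IRF7 arrays and 391373 to 453093 in the base-vector arrays. Most of it came from Krt18 and Krt8. Without scaling between arrays the median gene also moved up, by 0.23 on the log2 scale, whereas the log2 changes given here are scaled. Of 7 myeloid markers, 3 were well above background on all IRF7 arrays and 2 on all base-vector arrays, with Itgam on none and Ptprc on 0 IRF7 arrays and 1 base-vector array. The summed myeloid signal was 3636 to 4305 in the IRF7 arrays and 2648 to 2987 in the base-vector arrays, most of it from Cd14 (log2 change 0.38, adjusted p = 0.000217). Among 7 lymphocyte markers, 3 were well above background on all IRF7 arrays and 2 on all base-vector arrays, with Cd8a, Cd79a and Ms4a1 on none, and the sums were 339.9 to 379.9 in the IRF7 arrays and 248 to 533 in the base-vector arrays. The 5 fibroblast markers summed to 3197 to 3646 in the IRF7 arrays and 6405 to 7316 in the base-vector arrays, nearly all of it Pdgfra (log2 change -1.21), with Col1a1 and Lum on no array. Dcn (-2.40) was on 0 IRF7 arrays and 3 base-vector arrays, and Col1a2 was not called (0.30, limma adjusted p = 0.230). The 4 endothelial markers summed to 308 to 339.8 in the IRF7 arrays and 153 to 170.5 in the base-vector arrays, mostly Cdh5 (1.06), with Pecam1 and Kdr on no array. The part of these differences in the results above was not tested.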

How the data were processed

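RNA of 3 IRF7 and 3 base-vector cultures was measured. Groups and replicate numbers come from the sample titles. Per the submitters' processing notes, Agilent Feature Extraction 9.5.3.1 read the scans. The deposited files hold a linear intensity per spot (processed signal), from which background and spatial trend had been removed, per the file headers. The authors' value table was identical to it (largest difference 0), so that it is unscaled. The 1639 control spots and 111 to 121 outlier spots per array were left out. No member's probe was missing or saturated on any array. Spots of a probe were averaged on the log2 scale, giving 41174 probes, and names were updated through RefSeq (GRCm38.p6): 22951 by accession, 6659 by symbol and 3109 by an older symbol.

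The level tested was log2 processed signal less the 75th percentile of the array (1148 to 1458). A probe was kept if 3 or more of the 6 arrays had it well above background, and the brightest stood for its gene. The test was limma 3.58.1 (R 4.3.3; lmFit and eBayes, 4 residual and 1.64 prior degrees of freedom) over all 6 arrays with no block. It was tested on simulated data first. Other probes were tested in a fit of all 23518 kept probes. The number of arrays limits the precision. Python 3.11.15, pandas 2.3.3 and matplotlib 3.10.9 were also used.

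The members and lists were chosen with earlier results of these data known. The genes named are all members, Irf7, the up to 4 tested genes per list of smallest p, and the 3 genes nearest to each induced subunit; other genes were named after their values were seen, and 1 gene that the rule names is not reported here. The profile along chromosome 11 was also added after that. Alternatives were median centring, no scaling, normexp (offset 50), quantile normalization, no or a stricter filter, other probe rules, trend and robust eBayes, slide as a block, slide 1 alone, a replicate block and each array left out. Counting the Psme2b-ps probes as Psme2 and using the other Psmb8 probe were chosen after seeing the data.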

Additional observations from a re-analysis of the deposited data

How the results depend on the processing

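Psmb8 and Psmb10 kept their direction and their call under all 13 planned settings and with any array left out, at log2 changes of 0.52 to 0.80 and 0.36 to 0.64, and the 3 pair shifts stayed above 0 in each setting run. With the other Psmb8 probe the shift against Psmb5 was 0.46. The calls of Psmb9 and Psme1 ended in 3 settings, that of Psmb5 in 2 and that of Psmb6 in 1, as given with each gene; over these settings Psmb9 ranged from 0.11 to 0.35, Psme1 from 0.07 to 0.36, Psmb5 from 0.11 to 0.39 and Psmb6 from -0.37 to -0.10. The constitutive subunits called were 2, and 1 with median centring, with no scaling and with slide as a fixed block. The activators called were 1, 0 with median centring, within slide 1 and with slide as a fixed block, and 2 when the Psme2b-ps probes were counted as Psme2. The uncalled changes of Psmb7 and Psme3 turned sign with quantile normalization (-0.0029 and -0.013), and that of Psme3 with median centring (-0.023); with 1 array left out Psme3 ranged from -0.0079 to 0.049 (-0.00050 without IRF7 replicate 3 and -0.0079 without base-vector replicate 2). Without the filter for dim probes the calls were 14504 of 27670 genes (4753 higher and 9751 lower) in place of 9399 (4916 and 4483), and with every probe tested on its own 48 probes of other proteasome genes were called in place of 31 genes. Same-numbered arrays did not all deviate together (correlations of 0.04, 0.17 and 0.23 for replicates 1, 2 and 3), so the numbers were not taken as pairs; with the replicate block 9737 genes were called, the same members were called, and the paired exact permutation p of each pair shift was 0.25, the smallest it can be. The cause of the other differences was not tested. Depth of signal was no limit for the members, all well above background on 6 arrays.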
